A study of Homo sapiens with 5 samples.

Results

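Mitotic-gene-high cells were compared with mitotic-gene-low cells within each of 5 plates of SW480 tumor cells taken from zebrafish xenografts. Of 1920 wells, 826 passed as cells, with over 2000 genes detected and mitochondrial genes below 25% of UMIs (unique molecular identifiers, which count RNA molecules rather than reads). Each cell was given a score, which was the sum of its UMIs on TOP2A, MKI67, CENPF, UBE2C, CCNB1, CDC20, PLK1 and AURKA per 10000 human UMIs. The cells were chosen by this score within a plate, the top 20% as high cells and the bottom 40% as low cells. This gave 165 high cells, 330 low cells and 331 middle cells between them. The 8 score genes were left out of every test.

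SW480, an established line, comes from a human colorectal tumor, and its cells carried GFP from a lentiviral vector when injected. Tumors were dissected 1 day and 4 days post injection (dpi) and pooled, and live cells were sorted into 384-well plates for SORT-seq. Libraries 6, 7 and 8 were 1 dpi plates with 228, 142 and 163 passing cells, and libraries 10 and 11 were 4 dpi plates with 132 and 161. Every group in this comparison therefore comes from the same cell line in the same host, with no drug, genetic or uninjected control, and zebrafish at this age have innate but no adaptive immunity. Plates of a time point may share a pool of tumors, so that the errors and p-values given here may measure technical spread only. Between 4487175 and 7632951 human UMIs were counted per plate, ERCC spike-in RNA took 1.30% to 3.57% of all UMIs, and libraries 6, 7 and 10 shared a flow cell, as did libraries 8 and 11. The same 384 well numbers occur in every plate by design. Of 17 markers of human leukocytes, fibroblasts and endothelium, 7 were listed in all plates and 2 had enough counts to be tested, with PTPRC and CD3E not listed, whereas all 9 epithelial markers were tested.

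Cells about to divide raise a common set of genes late in S phase and in G2. Cyclin B1, encoded by CCNB1, activates the kinase CDK1 to start mitosis, PLK1 and AURKA mature the spindle poles, CENPF sits at kinetochores, TOP2A untangles sister chromatids, MKI67 coats mitotic chromosomes, and CDC20 and UBE2C let the anaphase-promoting complex destroy cyclin B and securin so that the chromatids part. Many of these genes are repressed in resting cells by the DREAM complex and switched on by B-MYB (MYBL2) and FOXM1, through CCAAT boxes bound by NF-Y and through the cell cycle homology region (CHR), a short element whose usual letters are TTTGAA.

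The score set the groups far apart, and further apart at 4 dpi. Median scores of high cells were 6.47, 10.1 and 5.12 in the 1 dpi plates (libraries 6, 7 and 8) and 20.4 and 21.0 in the 4 dpi plates (libraries 10 and 11). Medians of the middle cells were 1.38, 2.11, 1.33, 2.61 and 3.69 in the same order, and those of low cells 0.241, 0.519, 0, 0.434 and 0.684. At the upper cut the lowest high cell and the highest middle cell scored 3.59 and 3.55 in library 6, 4.68 and 4.11 in library 7, 2.56 and 2.52 in library 8, 9.39 and 9.27 in library 10, and 10.1 and 9.94 in library 11, so that the cut runs through a continuous range. Between 11.8% and 20.2% of the cells of a plate had no UMI of any score gene, and all of them were low cells. A few cells carried much of the signal. In each plate the 3 to 5 high cells with the most score UMIs held between 24.8% and 51.7% of the score UMIs of its high cells. Among the score genes, CENPF reached 303, 334, 228, 758 and 1038 CPM in high cells of libraries 6, 7, 8, 10 and 11 and 5.19, 7.32, 5.52, 9.75 and 18.3 in low cells. These values chose the cells and are given without a test.

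**Figure D1:**
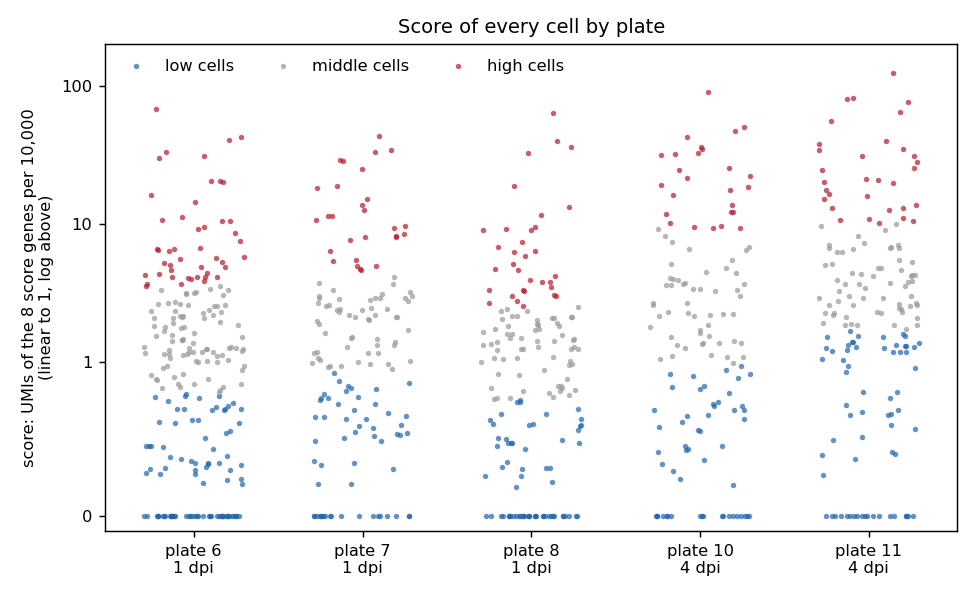
Score of each of the 826 cells, in UMIs of the 8 score genes per 10000 human UMIs, by plate. The axis is linear up to 1 and logarithmic above, each point is a cell, and high, middle and low cells are red, grey and blue. High cells of both 4 dpi plates reach higher scores than those of the 1 dpi plates, with medians of 20.4 and 21.0.

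Among genes above the median level and outside the score, the largest rises in high cells were those of genes that act in chromosome segregation and entry into mitosis. DLGAP5 and ASPM serve the spindle and its poles and CCNA2 encodes cyclin A2, the cyclin that precedes cyclin B. Levels are given as CPM, counts per 1000000 UMIs of the cells summed over a plate and group, with TMM scaling, in which 1 UMI is worth about 0.4 to 1 CPM. Differences are log2 values of high against low cells from edgeR, with the standard error of the fit. The promoters of DLGAP5, CCNA2 and ASPM, from 250 bases before to 50 bases after the start of the gene, are shown here because they are those of the 3 largest of these rises. They were taken from RefSeq in build GRCh38.p14, all from the minus strand, at chr14:55191536-55191835 for DLGAP5, chr4:121823834-121824133 for CCNA2 and chr1:197146620-197146919 for ASPM. Capitals mark CCAAT and the CHR letters TTTGAA on either strand (ATTGG and TTCAAA on the other).
DLGAP5: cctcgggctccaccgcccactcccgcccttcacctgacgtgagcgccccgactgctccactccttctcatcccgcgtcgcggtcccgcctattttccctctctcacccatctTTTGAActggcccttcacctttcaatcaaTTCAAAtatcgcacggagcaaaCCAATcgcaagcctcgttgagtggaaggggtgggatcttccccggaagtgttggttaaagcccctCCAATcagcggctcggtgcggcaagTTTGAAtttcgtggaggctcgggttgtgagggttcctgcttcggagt
CCNA2: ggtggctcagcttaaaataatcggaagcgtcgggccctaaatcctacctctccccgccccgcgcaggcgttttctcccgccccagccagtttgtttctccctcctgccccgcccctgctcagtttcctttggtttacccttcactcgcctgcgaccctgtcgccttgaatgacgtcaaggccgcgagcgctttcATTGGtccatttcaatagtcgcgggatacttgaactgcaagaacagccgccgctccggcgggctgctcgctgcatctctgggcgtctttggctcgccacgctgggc
ASPM: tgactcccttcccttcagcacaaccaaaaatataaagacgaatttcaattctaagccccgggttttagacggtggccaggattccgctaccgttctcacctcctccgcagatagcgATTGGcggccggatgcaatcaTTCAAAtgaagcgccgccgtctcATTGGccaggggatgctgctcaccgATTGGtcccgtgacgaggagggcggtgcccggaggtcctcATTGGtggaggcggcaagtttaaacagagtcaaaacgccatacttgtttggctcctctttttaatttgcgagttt
The DLGAP5 promoter held 2 CCAAT boxes and 3 CHR matches. In the ASPM promoter there were 4 CCAAT boxes, all as ATTGG, and 1 CHR match, and the CCNA2 promoter held 1 CCAAT box. TTTGAA was not among the letters of the CCNA2 window, which says no more than that.

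DLGAP5 had 45.9, 63.2, 39.9, 140.2 and 116 CPM in high cells of libraries 6, 7, 8, 10 and 11 and 0.432, 0.593, 0, 0.668 and 1.98 in low cells, a difference of 6.63 ± 0.28 (edgeR, adjusted p = 1.17e-12). High cells were far above low cells in every plate, and highest in both 4 dpi plates, and the low cells of all plates held only 6 UMIs of DLGAP5 against 460 in the high cells. CCNA2 had 114, 115, 61.0, 249 and 255 CPM in high cells and 2.59, 4.15, 0.620, 0.668 and 5.28 in low cells, a difference of 5.78 ± 0.24 (edgeR, adjusted p = 9.15e-13). ASPM, whose product focuses spindle poles, had 164, 135, 133, 396 and 439.7 CPM against 2.59, 5.34, 6.2, 2.00 and 5.94 (difference 5.73 ± 0.24, edgeR, adjusted p = 9.15e-13). For none of these 3 genes did the range of the high cells meet that of the low cells. When every cell was thinned to 5000 UMIs, with 11 shallower cells left out, DLGAP5 had at least 1 UMI in 28.8% of high, 3.04% of middle and 0.613% of low cells. The shares for ASPM were 46.2%, 8.21% and 1.53%, so that for each gene, taken alone, most high cells had no UMI at that depth.

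The next largest rises were those of KIF4A and KIF2C, kinesins that act on chromosome arms and on kinetochore microtubules, CKAP2L at the spindle, AURKB, the kinase of the chromosome passenger complex, TTK and BUB1, kinases of the spindle checkpoint, and CDK1. KIF4A had 83.8 ± 46.3 CPM (SD, n = 5 plates) in high and 1.70 ± 0.908 in low cells, a difference of 5.54 ± 0.24. KIF2C differed by 5.47 ± 0.24, CKAP2L by 5.32 ± 0.30 and AURKB by 5.21 ± 0.25. TTK differed by 5.09 ± 0.27 and BUB1 by 4.99 ± 0.22. CDK1, the most abundant of these 7, had 191, 120.3, 157, 417 and 305 CPM in high cells and 6.47, 13.1, 4.34, 5.35 and 5.94 in low cells, a difference of 4.95 ± 0.25 (edgeR, adjusted p = 9.02e-12). All 10 genes were higher in 5 of 5 plates with no overlap, and all 10 stayed called when the groups were drawn within 3 equal bins of UMIs per cell, when cells were thinned, and when UMIs were scaled by spike-in UMIs.

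**Figure D2:**
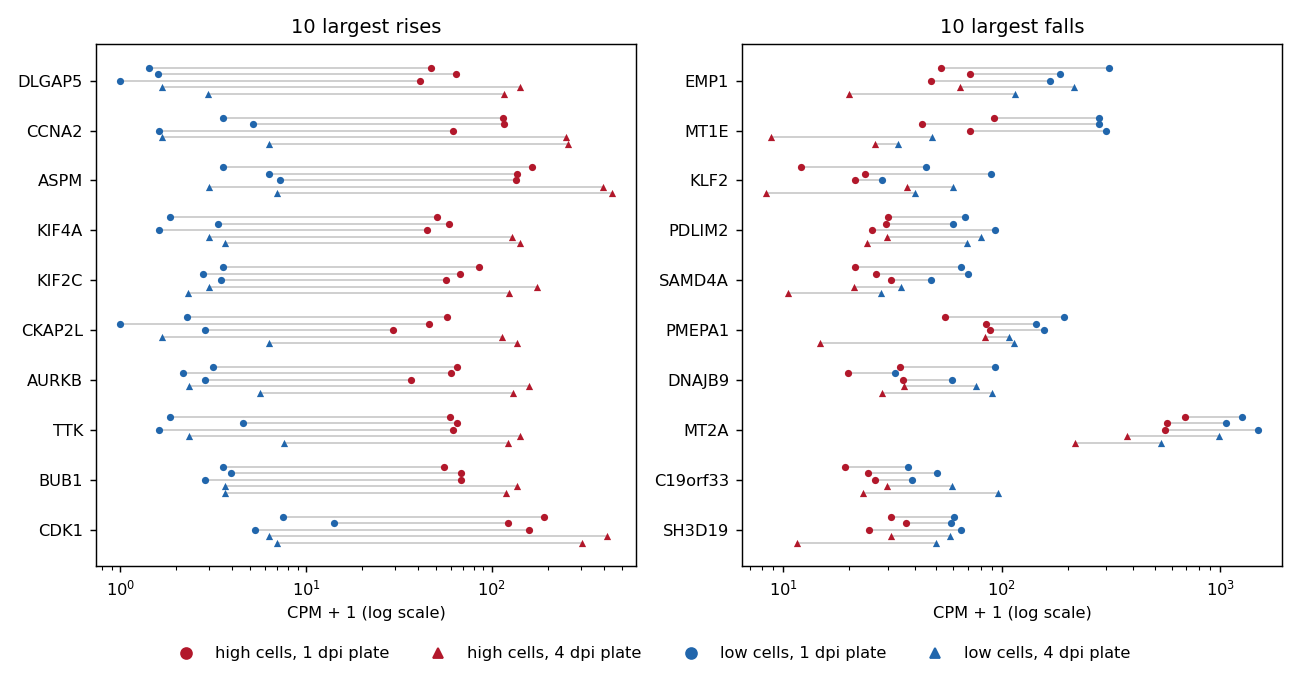
CPM + 1 on a log axis of the 10 largest rises (left) and the 10 largest falls (right), in high cells (red) and low cells (blue), joined by a line for each plate, among called genes above the median level with 1 direction in 5 of 5 plates. Circles are 1 dpi plates and triangles 4 dpi plates, in the order of libraries 6, 7, 8, 10 and 11 from top to bottom. All red points of the left panel lie to the right of all blue points of the same gene, whereas in the right panel the shift is smaller and some ranges meet.

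Of 10879 genes tested, 893 were called higher in high cells, 8.21% of those tested, and 644 lower, 5.92% (edgeR quasi-likelihood test with plate as a block, Benjamini-Hochberg adjusted p below 0.05). Of the called genes, 392 were more than 2-fold higher and 118 more than 2-fold lower, and the median over all genes was -0.02. These are differences per human UMI, and high cells had more human UMIs per spike-in UMI. Scaled per spike-in UMI instead, the median of all genes moved to 0.53, and 6605 genes were called higher and 76 lower. A gene named as lower below is lower relative to the other RNA of the cell. Of 29 genes called lower and named by the rule, 15 were still called lower per spike-in UMI. The number called lower rested in part on library 6, without which it was 353, and on library 8, without which it was 428. Without library 6, 631 genes were called higher.

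Most members of 7 lists of mitotic genes were higher in high cells. The lists hold 172 genes besides the score genes. Of 170 members tested, 146 were called higher and 1 lower, against the 8.21% and 5.92% of all genes, with a median difference of 2.23, and the ranges of the plates did not overlap for 138, beside 892 of all genes (8.20%). The lists were written with earlier results of these data known. With the groups drawn within 3 bins of UMIs the count was again 146, and thinning left 100 of 133 called. The lists are taken here by their part in division.

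Of 24 regulators of G2 and mitosis tested, 22 were called higher, with a median of 3.6. Besides CCNA2 and CDK1 these included GTSE1 (5.14 ± 0.35), which keeps p53 in check in G2, and CDC25C (5.00 ± 0.44), the phosphatase that activates CDK1. The transcription factors of the program rose as well: FOXM1 had 72.1, 83.5, 67.5, 145 and 189 CPM in high and 6.91, 7.12, 5.58, 14.0 and 7.92 in low cells (difference 3.68 ± 0.18, edgeR, adjusted p = 8.47e-12), and MYBL2 94.8, 79.7, 63.5, 140.2 and 168 against 3.88, 5.93, 4.96, 14.0 and 13.2 (difference 3.75 ± 0.18, edgeR, adjusted p = 5.07e-12). The increase was smaller for CDC25B (0.66 ± 0.13) and WEE1 (0.80 ± 0.17), the kinase that holds CDK1 back. ENSA and ARPP19, which restrain the phosphatase that opposes CDK1, were not called, at -0.18 ± 0.13 and 0.04 ± 0.11.

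Of 36 kinetochore and centromere genes, 31 were called higher (median 1.96). HJURP, which deposits the centromere histone CENPA, had 69.4 ± 27.1 CPM in high and 1.5 ± 0.865 in low cells (difference 5.39 ± 0.28), and NUF2 of the NDC80 complex, which grips microtubules, 64.4 ± 32.3 and 1.49 ± 0.808 (difference 5.38 ± 0.26). SPC25 of the same complex had 149 UMIs in all high cells and 3 in all low cells, so its fold is uncertain, and its highest level was 50.1 CPM in library 10. Members that were not called, such as MIS12 (-0.05 ± 0.18) and PMF1 (0.01 ± 0.13), belong to the MIS12 complex that joins centromere and microtubule binder, while DSN1 of that complex was called at 1.23 ± 0.15. In the spindle checkpoint and passenger list 12 of 14 were called higher (median 3.43), among them CDCA8 (5.12 ± 0.23), a passenger subunit, and MAD1L1 was not, at -0.40 ± 0.20.

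Of 13 mitotic kinesins, 12 were called higher (median 3.59). KIF20A, the motor of the central spindle, had 36.8, 21.8, 13.8, 60.1 and 85.2 CPM in high and 1.29, 0, 0, 0 and 3.30 in low cells, where all plates together had 8 UMIs, and KIF2A, which also depolymerizes microtubules outside mitosis, was not called, at 0.25 ± 0.16. Of 36 genes of spindle, centrosome and cytokinesis, 35 were called higher (median 2.99), with TACC1 the exception at 0.10 ± 0.11. In the list of condensin, cohesin and chromosome structure 26 of 28 were called higher, with a lower median of 1.19. Its largest members were CDCA5 (4.29 ± 0.24), which locks cohesin on chromatids, NCAPG (4.27 ± 0.31) of condensin and ESPL1 (4.11 ± 0.40), the separase that cuts cohesin, whereas core cohesin subunits moved less, with SMC3 at 0.71 ± 0.11 and STAG2 at 0.35 ± 0.11.

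The list of the anaphase-promoting complex had the smallest median of the 7. Of 19 genes of the complex and its regulators tested, 8 were called higher and 1 lower, with a median of 0.38. The largest values were outside the core of the complex: CDCA3 (5.33 ± 0.37), PTTG1, the securin that restrains separase (167 ± 48.7 CPM against 33.5 ± 7.30, difference 2.30 ± 0.17), and KPNA2 (2.30 ± 0.23), an importin. Among the core subunits ANAPC1 (0.51 ± 0.12), ANAPC11 (0.47 ± 0.14) and CDC23 (0.61 ± 0.13) were called higher, and ANAPC16 was called lower at -0.35 ± 0.10 (edgeR, adjusted p = 0.023). It lost its call under 11 of the 20 alternatives, of which the one per spike-in UMI turned it to 0.20.

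Genes of DNA replication, which act in S phase and not in mitosis, were also higher in high cells. Of 59 tested, 57 were called higher, with a median of 1.6. RRM2, the ribonucleotide reductase subunit that supplies nucleotides, had 204, 148, 125, 314 and 302 CPM in high and 4.32, 13.1, 5.58, 5.35 and 20.5 in low cells (difference 4.51 ± 0.22, edgeR, adjusted p = 8.56e-12). EXO1, an exonuclease, differed by 4.29 ± 0.28 and TK1, thymidine kinase, by 3.96 ± 0.21. The helicase subunit MCM2 differed by 1.17 ± 0.14 and PCNA, the sliding clamp, by 1.48 ± 0.11. In homologous recombination and Fanconi repair 21 of 24 were called higher (median 1.83), including FANCD2 (3.74 ± 0.28) and BRCA1 (3.28 ± 0.22). RAD54L, the largest of that list, had 36 UMIs in high and 1 in low cells. Of 31 nuclear pore and transport genes 19 were called higher with a small median of 0.52, and NUP205, a scaffold of the pore, rose from 50.6 ± 7.78 to 114 ± 13.7 CPM (difference 1.17 ± 0.13). Called higher were 96.6% of the replication, 87.5% of the repair and 61.3% of the pore genes tested, beside 8.21% of all genes.

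Against the middle cells the mitotic genes differed more often than the replication genes, without a test of that contrast. The cells were split by a score of mitotic genes, so the choice of cells itself favors mitotic genes at this cut. Against the middle cells of the same plate 308 of 10827 genes tested were higher in high cells, 2.84%, and 50 were lower, 0.462%. Of the 170 tested mitosis genes 127 were higher than in middle cells, with a median difference of 1.25, whereas of the 59 replication genes 23 were, with a median of 0.56. PCNA differed by 0.27 (edgeR, adjusted p = 0.37) and MCM2 by 0.21 (edgeR, adjusted p = 0.49) between high and middle cells and were not called, while DLGAP5 differed by 3.90 and KIF20A by 4.66. Across low, middle and high cells 95 of the 170 mitosis genes rose step by step in each of the 5 plates, as did 29 of the 59 replication genes and 286 of all 10879 genes.

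In the list of G1 cyclins, CDK inhibitors and G1/S factors the members went both ways, 14 of 32 called higher and 3 lower. These are 43.8% and 9.38% of the list, beside 8.21% and 5.92% of all genes. E2F8 and E2F7, repressors that turn the S phase program off, were higher: E2F7 had 38.1 ± 13.1 CPM against 11.1 ± 6.43 (difference 1.73 ± 0.25), and E2F8 had 65 UMIs in high and 1 in low cells. E2F2, an activator, differed by 3.87 ± 0.52. The 3 that fell are CDKN2B (-1.0 ± 0.19), which inhibits CDK4 and CDK6, BTG2 (-0.83 ± 0.13), an antiproliferative gene, and CCND1 (-0.59 ± 0.12), cyclin D1. Per spike-in UMI CDKN2B was still called lower, at -0.45, and BTG2 (-0.28) and CCND1 (-0.04) were not called. CDKN1A, encoding the CDK inhibitor p21, had 41.8, 27.1, 38.3, 57.9 and 14.7 CPM in high and 32.8, 26.7, 30.4, 57.5 and 37.6 in low cells and was not called (-0.03 ± 0.19). Of 19 p53 targets, 1 was called higher, the repair gene DDB2 (1.39 ± 0.31, higher in 4 of 5 plates), and 4 lower, led by BBC3 (-0.70 ± 0.19), a death gene, and GDF15 (-0.67 ± 0.19). Neither was called per spike-in UMI, at -0.14 and -0.13. The p53 targets called higher and lower are 5.26% and 21.1% of the list, beside 8.21% and 5.92% of all genes.

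The falls named next are the 10 largest among genes that were called, lower in 5 of 5 plates and above the median level, and they were a mixed set. Genes below that level fell more, to -4.89, on few UMIs. Within the same limits the largest falls were smaller than the largest rises. EMP1, an epithelial membrane protein, had 51.4, 70.7, 46.4, 63.4 and 18.9 CPM in high cells of libraries 6, 7, 8, 10 and 11 and 309, 184, 165, 214 and 114 in low cells, a difference of -1.99 ± 0.16 (edgeR, adjusted p = 7.22e-09). It was lower in 5 of 5 plates with no overlap, and per spike-in UMI it was still lower, by -1.43 on the log2 scale. The metallothioneins MT1E and MT2A, which bind zinc and copper, were lower as well. MT1E had 90.7, 42.1, 70.8, 7.79 and 25.2 CPM in high and 276, 278, 299.8, 46.8 and 32.3 in low cells (difference -1.93 ± 0.20), and its level in both groups was lower at 4 dpi. MT2A had 690.0, 572, 559.9, 374 and 216 CPM against 1256, 1057, 1484, 981 and 535 (difference -1.16 ± 0.11). Both were also lower than in middle cells, MT1E by -1.93 (edgeR, adjusted p = 0.00022) and MT2A by -1.30 (edgeR, adjusted p = 0.0021). EMP1 was not called against middle cells, at -0.78 (edgeR, adjusted p = 0.15).

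The other large falls were KLF2 (-1.45 ± 0.23), a Krüppel-like transcription factor, PDLIM2 (-1.41 ± 0.15), which restrains NF-kB and STAT factors, the RNA-binding protein gene SAMD4A (-1.21 ± 0.18) and PMEPA1 (-1.21 ± 0.21), a TGF-beta-induced inhibitor of SMAD signaling. DNAJB9 (-1.19 ± 0.16) is a chaperone of the endoplasmic reticulum, and C19orf33 (-1.15 ± 0.19) and SH3D19 (-1.14 ± 0.18) complete the 10 within these limits. PDLIM2 varied little between plates, with 29.2, 28.6, 24.4, 28.9 and 23.1 CPM in high and 66.5, 58.7, 91.7, 78.8 and 68.0 in low cells. All 10 stayed called lower per spike-in UMI and with groups drawn within 3 bins of UMIs, and 7 of 10 did after thinning to 5000 UMIs. PDLIM2 (-0.85), SAMD4A (-0.23) and SH3D19 (-0.39) lost their calls after thinning. Against middle cells C19orf33 was called lower, at -0.70 (edgeR, adjusted p = 0.027). KLF2, PDLIM2, SAMD4A, PMEPA1, DNAJB9 and SH3D19 were not called against middle cells.

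Among immediate early genes, which tissue dissociation can raise, 7 of 30 were called lower and 1 higher, with a median of -0.17. These are 23.3% and 3.33% of the list, beside 5.92% and 8.21% of all genes. KLF4 fell by 1.12 ± 0.15 on the log2 scale (30.6 ± 8.96 CPM in high and 66.6 ± 16.5 in low cells), and FOS was not called, at -0.01 ± 0.20. IER2 was called higher at 0.36 ± 0.11 in 4 of 5 plates, but was at 0.03 with groups drawn within 3 bins of UMIs and at 0.05 after thinning, and it lost its call under 11 of 20 alternatives. Of 26 hypoxia and glycolysis genes 3 were called higher, the glycolytic enzymes LDHA (0.50 ± 0.11), PGAM1 (0.55 ± 0.12) and TPI1 (0.33 ± 0.11), and 4 lower, including VEGFA (-0.93 ± 0.16) and NDRG1 (-1.10 ± 0.18), which hypoxia induces. These are 11.5% and 15.4% of the list, beside 8.21% and 5.92% of all genes. PGAM1 lost its call with groups drawn within 3 bins of UMIs (0.35). After thinning neither PGAM1 (0.33) nor LDHA (0.29) was called. TPI1 stayed called in both settings, and under 13 of 20 alternatives. The 78 ribosomal protein genes had no call in either direction and a median of -0.10. The most abundant, RPS27A, had 3889 ± 313 CPM in high and 4408 ± 334 in low cells. Without TMM factors 10 of the 78 were called lower, beside 670 of all 10879 genes. Per spike-in UMI 77 were called higher, beside 6605 of all 10879 genes.

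Heat shock proteins and co-chaperones leaned upward, with 12 of 20 called higher, none lower and a median of 0.54. These are 60% and 0% of the list, beside 8.21% and 5.92% of all genes. Library 7 had a median log2 ratio of only 0.02, and the other plates had 0.32 to 0.90. In 5 of 5 plates 8 of the 20 were higher. HSP90AA1, an abundant chaperone, had 2722, 2376, 2759, 2689 and 3027 CPM in high and 1566, 2012, 1892, 1350 and 1479 in low cells (difference 0.72 ± 0.11, edgeR, adjusted p = 0.00011). HSPA1A, the inducible HSP70, had 12.1, 24.1, 27.7, 108 and 239 CPM in high and 7.34, 9.49, 25.4, 14.7 and 4.62 in low cells, so that the difference was larger in both 4 dpi plates than at 1 dpi. HSPA1A and HSPA1B are near-identical copies whose reads may be split between them, and HSPA1B differed by 1.14 ± 0.27 in 4 of 5 plates. After thinning 3 of 17 members were called, beside 435 of all 5919 genes called in either direction.

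Genes that the study named for cell states of these tumors were called in part. HES1, a Notch effector, was higher in high cells in 5 of 5 plates, with 520.2, 1553, 916, 140.2 and 64.2 CPM against 335, 1126, 554, 64.8 and 62.0 (difference 0.61 ± 0.12, edgeR, adjusted p = 0.00095). The values of both groups were far lower at 4 dpi, and library 11 hardly differed. HES5 (0.01 ± 0.36), HEY2 (0.42 ± 0.47) and HEYL (0.02 ± 0.31) were not called, and HES5 had 155, 50.4, 61.0, 0 and 3.16 CPM in high and 43.6, 144, 81.8, 0.668 and 3.96 in low cells, without a common direction. Without library 6 it was called lower, at -0.96 (edgeR, adjusted p = 0.016), as it was with groups drawn within 3 bins of UMIs, at -0.70. In the Notch list 3 of 13 were called higher and 2 lower, of which HES4, at -0.66, was at -0.09 and not called per spike-in UMI. The shares of the Notch list are 23.1% and 15.4%, beside 8.21% and 5.92% of all genes. NOTUM, a secreted Wnt inhibitor, was lower in 5 of 5 plates (269, 230.1, 222, 272 and 303 CPM against 413, 333, 399.6, 595 and 439, difference -0.73 ± 0.11, edgeR, adjusted p = 4.13e-05), though per spike-in UMI it was not called (-0.18). The other Wnt genes AXIN2 (0.15 ± 0.14), APCDD1 (-0.14 ± 0.12), ASCL2 (-0.18 ± 0.13) and PROX1 (0.23 ± 0.19) were not called. Per spike-in UMI, where 6605 genes were called higher, so were AXIN2 (0.70), APCDD1 (0.41), ASCL2 (0.36) and PROX1 (0.77). Of 21 Wnt targets tested 3 were called lower, 14.3% beside 5.92% of all genes, and none higher. Of these LEF1 was at -0.17 per spike-in UMI and not called.

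Chemokine genes were lower or not called: of 6 tested 3 were called lower, 50% beside 5.92% of all genes, with a median of -0.65. CXCL1, which recruits neutrophils, had 14.1, 42.9, 8.14, 31.2 and 11.6 CPM in high and 22.4, 47.5, 31.6, 77.5 and 24.4 in low cells (difference -0.91 ± 0.21, edgeR, adjusted p = 0.0055), CXCL2 differed by -1.20 ± 0.35 and CXCL8 by -0.75 ± 0.18. CXCL8 was not lower than in middle cells but higher, by 0.85 (edgeR, adjusted p = 0.0093), so the middle cells did not lie between the groups. Per spike-in UMI none of the 3 was called, with CXCL1 at -0.36, CXCL2 at -0.65 and CXCL8 at -0.21, and with groups drawn within 3 bins of UMIs CXCL2 and CXCL8 lost their calls as well (edgeR, adjusted p = 0.081 and 0.062). In the top 10% against the bottom 20% CXCL1 was 0.24 higher and not called. CX3CL1, TERT and DLL4 had too few counts to be tested. Of 22 interferon-stimulated and MHC class I genes 2 were called higher, among them OAS3 (1.86 ± 0.29), and 1 lower, ISG20 (-1.41 ± 0.25), which is 9.09% and 4.55% of the list and near the shares of 8.21% and 5.92% over all genes. Among 10 secretory and absorptive genes tested, KRT19 was called lower (-0.70 ± 0.12) and GUCA2A higher with 37 UMIs against 11, and of 9 epithelial markers CLDN4 (-0.77 ± 0.20) and KRT8 (-0.32 ± 0.09) were called lower. Per spike-in UMI KRT19 (-0.15), CLDN4 (-0.22) and KRT8 (0.23) were not called. The calls are 10% each way of the secretory and absorptive genes, and 22.2% of the epithelial markers are lower.

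High cells had more UMIs than low cells in every plate. Their median number of human UMIs was 44326, 43455.5, 33673, 31506 and 29788.5 in libraries 6, 7, 8, 10 and 11, against 25605, 31827, 21080, 23451 and 17723 in low cells, a mean ratio of 1.54 ± 0.18 (SD, n = 5 plates). The exact paired permutation test gave p = 0.0625, two-sided, which is the smallest p that 5 plates allow. The score is not independent of depth, since a cell with few UMIs more often has none of the score genes, and with groups drawn within 3 bins of UMIs the medians were 27170.6 and 28050.6 by construction. Per spike-in UMI of the same well, which scales for the capture of each well, high cells had 124, 142, 63.1, 142 and 70.6 human UMIs and low cells 92.9, 98.6, 53.1, 95.1 and 43.2. The mean ratio was 1.42 ± 0.17 and high cells were above low cells in 5 of 5 plates (exact permutation p = 0.0625). With groups drawn within 3 bins of UMIs that ratio was 1.19 ± 0.20, with high cells above low cells in 4 of 5 plates (exact permutation p = 0.125) and library 8 at a difference of -2.47. High cells also had more genes detected, 6435.2 against 5249.1 as the mean of the plate medians, but 2274.7 against 2249.3 after thinning.

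The mitochondrial share of UMIs was higher in the high cells of both 4 dpi plates and had no common direction at 1 dpi. In high cells it was 11.7%, 11.5%, 11.2%, 15.5% and 15% and in low cells 13.4%, 11.5%, 9.93%, 9.04% and 9.74%, in the same order of plates. High cells thus differed by -1.66, -0.08 and 1.30 percentage points at 1 dpi and by 6.42 and 5.25 points at 4 dpi, and over the 5 plates the difference of 2.25 points was not larger than its spread (exact permutation p = 0.375, higher in 3 of 5 plates). The part of this share in the results at 4 dpi was not tested. With cells above 15% left out the difference was 0.683 points. The 15 mitochondrially encoded genes tested had a median of -0.01 at 1 dpi and 0.67 at 4 dpi. Over all plates 4 of the 15 were called higher, 11 without library 7 and none without library 10. Of all genes 8.21% were called higher over all plates, 927 of 10765 without library 7 and 771 of 10782 without library 10.

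**Figure D3:**
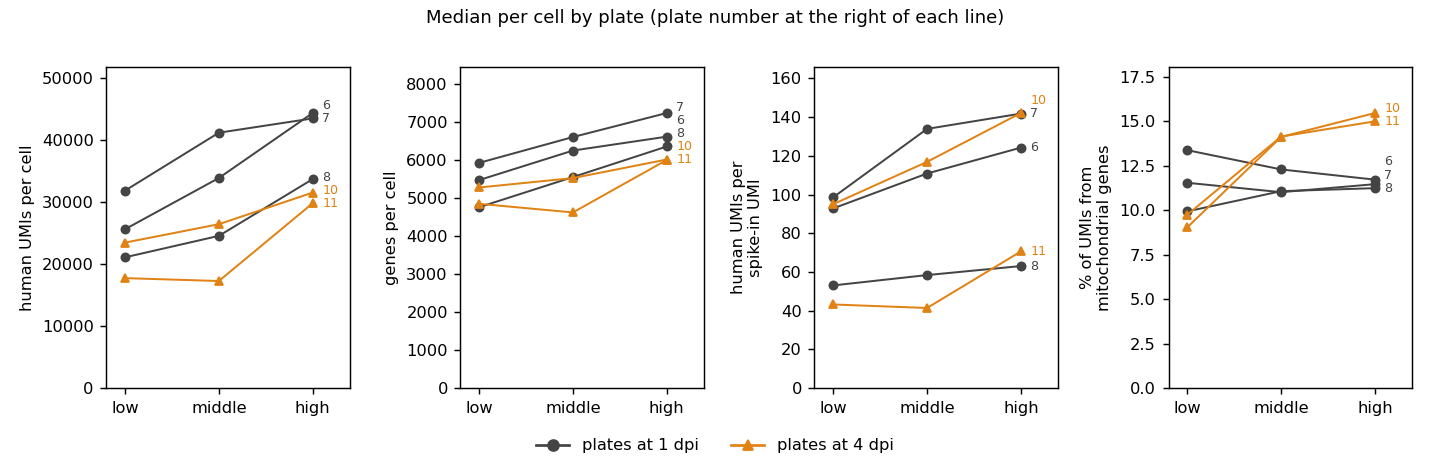
Medians over the low, middle and high cells of each plate for human UMIs, genes, human UMIs per spike-in UMI and the mitochondrial share in percent. Each line is a plate, grey circles at 1 dpi and orange triangles at 4 dpi, with its number at the right. In the first 3 panels high cells lie above low cells in every plate, with a dip at the middle cells of library 11, and in the last panel both 4 dpi plates rise, to 15.5% and 15%, while the 1 dpi plates do not share a direction.

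The difference between high and low cells was next compared between 4 dpi and 1 dpi, by the interaction of cell group and time. Of 10879 genes 27 were called, 0.248%, of which 22 had a larger and 5 a smaller difference at 4 dpi (edgeR; 942 genes at an unadjusted p below 0.05). These calls rest on few plates: without library 8 none were called, without library 11 there were 11 and without library 10 there were 44. Only 4 of the 27 were among the 11, and 14 of the 27 among the 44. The score itself was further apart at 4 dpi. The mitosis genes had a median difference of 1.95 at 1 dpi and 2.61 at 4 dpi, 146 of 170 had the larger value at 4 dpi, beside 5681 of all 10879 genes, and 5 of the 170 were called. By flow cell, the median log2 ratio of the G2 and mitosis regulators was 3.01 and 2.51 in libraries 6 and 7 and 3.42 in library 10 on one, and 2.61 in library 8 and 3.77 in library 11 on the other.

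Called mitotic genes with larger differences at 4 dpi included TACC3, a spindle protein (2.44 at 1 dpi, 4.39 at 4 dpi, edgeR, adjusted p = 0.02), and FAM83D, which positions the spindle (2.12 and 4.39, edgeR, adjusted p = 0.024). In low cells TACC3 had 12.9, 10.1, 16.7, 6.68 and 7.92 CPM in libraries 6, 7, 8, 10 and 11 and in high cells 68.5, 65.4, 82.2, 142 and 166, so that at 4 dpi the low cells were lower and the high cells higher. HSPA1A went from 0.65 to 4.09 (edgeR, adjusted p = 0.0082). CXCL3 went from -1.17 to 1.19 (edgeR, adjusted p = 0.027) and TFF3, a trefoil factor of secretory epithelium, from -0.69 to 0.73 (edgeR, adjusted p = 0.0082), so both were lower in high cells at 1 dpi and higher at 4 dpi. TFF3 had 55.9, 63.2, 88.7, 110.2 and 119 CPM in high and 99.7, 91.4, 142, 64.1 and 73.9 in low cells. The long noncoding LINC01089 went from -0.53 to 2.22.

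The 5 genes with a smaller difference at 4 dpi were all lower in high cells at that time and between -0.28 and 0.75 at 1 dpi. KRT17, a keratin, had 68.5, 116, 119.6, 11.1 and 7.36 CPM in high and 55.7, 148, 116, 23.4 and 71.9 in low cells (-0.02 at 1 dpi, -2.32 at 4 dpi, edgeR, adjusted p = 0.024). SASH1 went from -0.28 to -2.32 and RGS16, a brake on G protein signaling, from 0.53 to -1.08. KIF1A, an axonal transport kinesin with no part in division, went from 0.75 to -3.49, with 50 UMIs in all high and 75 in all low cells. With cells above 15% mitochondrial UMIs left out, 28 genes were called. Of the 27 genes 8 were still called, HSPA1A (3.64 between the time points) and CXCL3 (2.77) among them. KRT17 was not, at -0.30, nor were TFF3, at 0.77 (edgeR, adjusted p = 0.41), TACC3, at 1.6 (edgeR, adjusted p = 0.15), and FAM83D, at 1.93 (edgeR, adjusted p = 0.14).

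**Figure D4:**
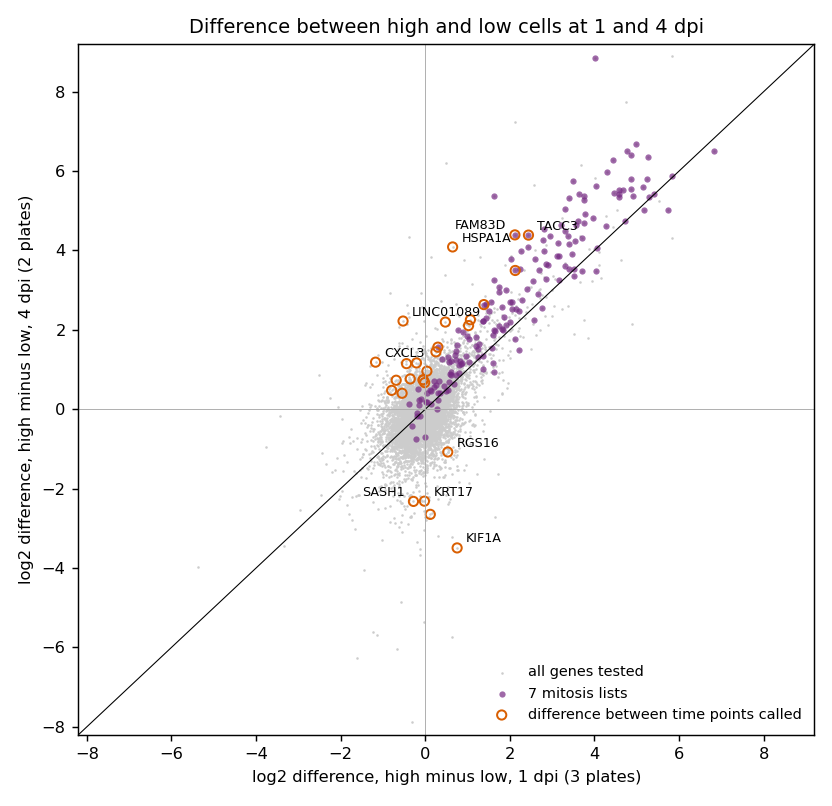
Log2 difference of high against low cells at 1 dpi (3 plates, x axis) and 4 dpi (2 plates, y axis). Grey points are the 10879 genes tested, purple points the members of the 7 mitosis lists, and orange rings the 27 genes whose difference between the time points was called, with 9 named. Most purple points lie above the diagonal line of equal differences.

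Promoter letters of the genes were then counted. Of the 893 genes called higher, 763 had a promoter in the RefSeq table, and 51.2% of these held CCAAT on either strand, against 34.1% of 511 called lower, 37.4% of 8877 tested genes with a promoter and 35.7% of all 27305 promoters. TTTGAA on either strand was held by 21.8% of those called higher, 7.83% of those called lower, 9.37% of the tested genes and 15.4% of all promoters. For the 124 mitosis-list genes called higher with a promoter, the shares were 65.3% for CCAAT and 55.6% for TTTGAA, and 40.3% held both, against 3.93% of the tested genes. The 52 replication genes with a promoter held CCAAT in 53.8% and TTTGAA in 5.77%. A match is only a run of letters, and both motifs may share letters where they meet. Both strands were searched. Among the 10 largest rises, the KIF2C promoter held neither and TTK had no entry.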

How the data were processed

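Single SW480 cells from xenografts were profiled by SORT-seq on 5 plates. Reads were aligned with BWA to a human reference transcriptome, and the submitters' processing notes name hg38, with versions not given in the sources used here. For each plate the authors deposited raw UMI counts per gene and well, without normalization. Genes listed in all 5 plates and in at least 10 wells were used (15022). Raw counts were summed per plate and cell group, and tested with edgeR 4.0.16 (R 4.3.3; quasi-likelihood, TMM, filterByExpr, plate as a block, Benjamini-Hochberg adjusted p below 0.05). DESeq2 1.42.0 was an alternative. Cell metrics were compared as plate medians with exact paired permutation, by sign flips over the plates (numpy 2.4.6). The sums held 925446 to 2295934 UMIs. The scripts were tested on simulated data. Doublets were not called.

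The members and gene lists were chosen with earlier results of these data known. Genes were named as the 10 largest rises and falls that were called, went the same way in 5 of 5 plates and were above the median level, the 3 largest called rises and 2 largest called falls of each list (where a list had no call, its most abundant member), up to 5 interaction genes each way, the score genes and the genes named in the study's single-cell text. Further list members were named after their values were seen. Alternatives changed the test, the scaling, the filters, the cuts of the score, the plates, the depth and the mitochondrial limit. Some genes are not reported here.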

Additional observations from a re-analysis of the deposited data

Results flagged for a closer look

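The difference between high and low cells itself differed between 4 dpi and 1 dpi for 27 genes (edgeR interaction of cell group and time, 3 plates against 2). Values here are the log2 difference at 4 dpi minus that at 1 dpi. Of the genes with a larger value at 4 dpi, HSPA1A had 3.44, LINC01089 2.75, CXCL3 2.36, FAM83D 2.27, TACC3 1.95, REEP4 1.72 and BIRC3 1.59. TFF3 had 1.42, EPHB6 1.37, CKAP2 1.37, PHGR1 1.27, LBR 1.27, HMGB2 1.25, UBALD2 1.19 and ARL6IP1 1.19. CDK6 had 1.12, HIST1H4C 1.08, ASPH 0.95 and XPO1 0.92, and the mitochondrial genes MT-ATP6, MT-CO2 and MT-CO3 had 0.79, 0.79 and 0.68. Of those with a smaller value, RGS16 had -1.61, SASH1 -2.04, KRT17 -2.30 and KIF1A -4.25. CKAP2, HMGB2, TACC3, FAM83D and REEP4 were higher in high cells at both times, whereas PHGR1, TFF3, CXCL3 and BIRC3 were below 0 at 1 dpi and above it at 4 dpi. Without library 8 no gene was called.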

How the results depend on the processing

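No gene called in one direction was called in the other under any alternative, except 3 per spike-in UMI. Per spike-in UMI 6605 genes were called higher and 76 lower. Without the plate block 548 were called higher and 231 lower, and after thinning 270 and 165. The number called lower was 292 with DESeq2, 398 with the top 10% and bottom 20%, and 381 at a mitochondrial maximum of 15%. Leaving out 1 plate gave 631 to 927 genes higher and 353 to 618 lower. Against middle cells, leaving out 1 plate gave 226 to 283 higher and 24 to 68 lower. There the counts were 150 higher and 9 lower without the plate block, 510 and 227 with the top and bottom 30%, and 136 higher after thinning, and the number lower was 21 with DESeq2, 87 without a filter, 93 with a score of 4 genes and 26 at a minimum of 3000 genes. The interaction called 108 genes without a filter, 8 without the plate block, 71 with the top 10% and bottom 20%, 58 with the top and bottom 30%, 43 with a score of 4 genes, 6 after thinning and 0 to 44 with 1 plate left out. Median UMIs per cell differed by -880 with groups drawn within 3 bins of UMIs, which fix them by construction. Directions turned per spike-in UMI for ANAPC16 (0.20), RPS27A (0.37), KRT8 (0.23), RGS16 (0.52), APCDD1 (0.41) and ASCL2 (0.36). They turned after thinning for LEF1 (0.0275) and for the interaction of PHGR1 (-0.0474), with the top 10% and bottom 20% for CXCL1 (0.24) and the interaction of HIST1H4C (-0.0305), and for HES5 with 1 library left out (-0.96 to 0.73) and within bins of UMIs (-0.70). The cause was not tested. Low genes are limited by depth, since 1 UMI is worth 0.4 to 1 CPM. No paired analysis was possible because the plates of the time points share no replicate numbers; within a plate the groups were blocked in the main test.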

Other observations

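Of the genes called, 609 higher and 613 lower were in none of the lists, and those named here were chosen after their values were seen. Among the largest rises were UBE2T, a ubiquitin-conjugating enzyme of Fanconi repair (86.9 ± 25.1 CPM in high and 9.68 ± 2.74 in low cells, SD, n = 5 plates, log2 difference 3.08), and DTL, which targets replication factors for destruction (109 ± 29.3 and 15.97 ± 4.25, difference 2.74). PRR11 differed by 2.51, ATAD5 by 2.25, MCM8 by 2.14 and LIN9, a subunit of the DREAM and B-MYB complexes, by 2.11. DTYMK, thymidylate kinase, differed by 1.94 and the kinase VRK1 by 1.72.

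Of the 201 falls in no list that were lower in 5 of 5 plates with no overlap of the groups' ranges, the most abundant included SQSTM1, the autophagy receptor p62, with 422, 318, 371, 546 and 337 CPM in high cells of libraries 6, 7, 8, 10 and 11 and 675, 869.9, 714, 916 and 1120.1 in low cells (log2 difference -1.10 ± 0.13, edgeR, adjusted p = 3.08e-06). Per spike-in UMI SQSTM1 was still called lower, at -0.56. S100A6 (-0.68), ANXA2 (-0.56), EIF1 (-0.42) and TPT1 (-0.36) were lower per human UMI, and per spike-in UMI S100A6 was at -0.13, ANXA2 at -0.01 and TPT1 at 0.19, none of them called lower.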
